A study of Mus musculus with 40 samples.

Results

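The expression of 7 genes of the mouse liver is described here across sham-operated mice and mice with small bowel resection (SBR), out of the 15958 genes of the expression table. They are 5 major urinary protein genes (Mup3, Mup7, Mup10, Mup11 and Mup15), the sulfotransferase gene Sult2a8 and the cytochrome P450 gene Cyp4a12a. They were picked from measured values of these same livers, for a low level after resection or a higher level with the drug WUSTL0717, so their liver differences are given as a description and without a test. The table was made from RNA sequencing of 40 libraries of male wild-type C57BL/6 mice, operated on at 8 weeks of age. The 18 liver libraries fall into 5 from sham mice given vehicle, 8 from SBR mice given vehicle and 5 from SBR mice given WUSTL0717, a gut-restricted liver X receptor agonist. The drug was given by mouth at 30 mg/kg each day for 7 weeks, starting 3 weeks after surgery, and the other groups received vehicle. The sample labels give the resection as 50 to 60% of the small intestine. The study's own text gives a larger share, so the extent of the resection is uncertain here. There were no sham mice given the drug, so its action on an intact bowel cannot be read from these groups. The duodenum and the ileum were each represented by 3 sham vehicle, 4 SBR vehicle and 4 SBR WUSTL0717 libraries. Hepatocyte markers, 10 of 10 of them in the table, had mean levels of 7.43 to 8.86 log2 units over the liver libraries. The values had been batch-corrected between liver and intestine, so these levels do not measure hepatocyte content.

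Major urinary proteins are small lipocalins that the liver secretes and the kidney filters into the urine, where they bind and slowly release volatile pheromones. Their genes lie in 1 cluster of near-identical copies, and in male mice they belong to a liver program that is driven by pulsed growth hormone through its receptor and STAT5b. The same program includes other genes with higher expression in males, among them Cyp4a12a, a fatty acid hydroxylase. Sult2a8 encodes a sulfotransferase that acts on bile acids.

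Because the Mup copies are nearly alike, their sequences are given first. GENCODE M21 (build GRCm38) places 22 numbered Mup genes on chromosome 4 between positions 59956804 and 62150863, a span of 2194 kb, and 21 of them are on the minus strand. Of these, 10 are in the table and the others were not analysed here. Mup7 lies at chr4:60066469-60070475, Mup10 at chr4:60578260-60582199, Mup11 at chr4:60658466-60662411, Mup15 at chr4:61435790-61439743 and Mup3 at chr4:62083476-62087342. Cyp4a12a is on the same chromosome but far from them, on the plus strand at chr4:115299046-115332815, and Sult2a8 is on the minus strand at chr7:14410686-14446769. All 7 are protein-coding.

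Promoters were taken from the RefSeq table of build GRCm38.p6, which held the 5 Mup members and Sult2a8. They run from 250 bases before to 50 bases after each annotated start. The letters TATATAA, searched on both strands, were found in 4 of the 5 Mup member promoters and in 3.24% of all 32851 promoters of the same length. The Mup7 window ends before the place where TATATAA follows in Mup11 and Mup15, so whether Mup7 has it cannot be judged here. The annotated starts are not at matching places, since TATATAA began at -30 in Mup10, -25 in Mup15, -11 in Mup3 and -2 in Mup11. The 57 bases around TATATAA are shown for the 4 genes in which it was found. TATATAA is in capitals and the gene is on the minus strand in each case.
Mup15: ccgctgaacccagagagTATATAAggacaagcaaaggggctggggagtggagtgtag
Mup11: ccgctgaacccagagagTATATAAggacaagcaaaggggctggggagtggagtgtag
Mup10: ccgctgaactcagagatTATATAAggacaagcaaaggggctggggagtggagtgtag
Mup3: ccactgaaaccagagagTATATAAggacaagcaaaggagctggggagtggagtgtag
These stretches lie at chr4:61439690-61439746 for Mup15, chr4:60662358-60662414 for Mup11, chr4:60582146-60582202 for Mup10 and chr4:62087289-62087345 for Mup3. The Mup11 stretch was identical to that of Mup15 at all 57 bases, the Mup10 stretch at 55 and the Mup3 stretch at 54. Over the part of the windows that could be aligned, Mup3 was only 84.5 to 87.5% identical to the other 4, which were 94.8 to 99.6% identical to each other. The letters TTCNNNGAA, the core of the STAT5 motif, were on neither strand of the 5 Mup windows and were in 8.3% of all promoters.

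The likeness of the transcripts limits what can be said of a single copy, because reads that match several genes were not counted. The GENCODE transcripts of Mup7, Mup10, Mup11 and Mup15 were 98.6 to 99.2% identical in pairs over 925 to 927 aligned bases, whereas Mup3 was 83.9 to 86.9% identical to them. Each transcript was cut into all its windows of 150 bases and each window was looked for in the transcripts of every other gene. For Mup3 and Sult2a8, 100% of the windows were found in no other gene, and for Cyp4a12a 74.4%, the rest being shared with its neighbour Cyp4a12b. For Mup7 the unique share was 27.1%, for Mup11 21.8%, for Mup10 15.6% and for Mup15 9.28%. Mup10 shared 84.1% of its windows with Mup22. Mup3 and Sult2a8 therefore share no stretch of this length with any other gene, and the values of the other Mup members are uncertain as to the copy.

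Values are log2 TPM (transcripts per fixed total, a measure of abundance corrected for length) after a batch correction that shifted and rescaled each gene separately in liver and intestine. The order of the libraries of a gene within the liver is kept by such a step, but levels of different genes, and of liver and intestine, cannot be compared, and a log2 difference is not an exact fold. Mup15 is the exception among the members. It was listed at 0 in all 22 intestinal libraries and so was left on its original scale.

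Mup3, the Mup member with no shared windows, was at 7.77, 7.63, 7.87, 7.63 and 7.72 log2 units in the 5 sham livers. In the 8 SBR vehicle livers its lowest value was 3.41, its median 3.96 and its highest 4.89. In the 5 SBR WUSTL0717 livers it was at 6.21, 5.83, 6.11, 5.15 and 5.85. The 3 groups did not overlap, with SBR vehicle lowest, WUSTL0717 between and sham highest. The group means were 7.72 ± 0.10 (SD, n = 5), 4.12 ± 0.57 (SD, n = 8) and 5.83 ± 0.42 (SD, n = 5), so SBR vehicle lay 3.60 log2 units below sham and WUSTL0717 lay 1.71 above SBR vehicle. The 2 differences share the 8 SBR vehicle libraries, here and for every gene below.

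Mup15 was at 8.81, 8.42, 7.95, 5.51 and 8.21 log2 units in the sham livers, where library 4 was the low one. In SBR vehicle livers it was between 0 and 0.85 with a median of 0.18, and 3 of the 8 libraries were listed at 0. In WUSTL0717 livers it was at 3.69, 2.26, 1.95, 1.13 and 2.29. The treated livers thus all lay above the vehicle livers and all below the sham livers, with means of 7.78 ± 1.30 (SD, n = 5) in sham, 0.22 ± 0.28 (SD, n = 8) in SBR vehicle and 2.26 ± 0.92 (SD, n = 5) in WUSTL0717.

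Mup7 followed the same order. Its sham values were 7.39, 7.18, 6.86, 4.97 and 6.60 log2 units, with library 4 again the lowest. Its SBR vehicle values ran from -0.41 through a median of -0.30 to 0.20, and its WUSTL0717 values were 3.13, 0.90, 1.02, 0.60 and 1.63. Treated library 1 stood above the other 4 treated livers, which stayed within 2 log2 units of the vehicle group.

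Mup11 was at 5.79, 5.58, 5.25, 4.61 and 5.39 log2 units in sham livers. In SBR vehicle livers it ran from -0.34, its value in 3 of the 8 libraries, through a median of -0.23 to 0.12. In WUSTL0717 livers it was at 1.82, 0.63, 0.87, 0.30 and 1.09, and all 5 treated livers lay above all 8 vehicle livers.

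Mup10 again had SBR vehicle livers lowest and treated livers between. Its sham values were 4.42, 4.02, 4.30, 3.89 and 4.09 log2 units, and its SBR vehicle values ran from -0.24 through a median of 0.71 to 1.81. With WUSTL0717 it was at 3.77, 3.03, 3.68, 2.20 and 3.48, so 4 of the 5 treated livers came within about 1 log2 unit of the lowest sham liver. Library 4 of the treated group was the lowest, as it was for Mup3, Mup7, Mup11 and Mup15.

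Sult2a8 was at 5.01, 4.56, 4.77, 4.83 and 4.90 log2 units in sham livers. After SBR with vehicle its lowest, median and highest values were 1.87, 2.09 and 2.93. With WUSTL0717 it was at 4.28, 4.20, 4.48, 3.18 and 3.87, above every vehicle liver and below every sham liver. The means were 4.81 ± 0.17 (SD, n = 5), 2.27 ± 0.36 (SD, n = 8) and 4.00 ± 0.51 (SD, n = 5).

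Cyp4a12a was the only member for which treated and sham livers overlapped. It was at 4.43, 4.44, 4.54, 4.24 and 4.33 log2 units in sham livers and ran from 1.15 through 2.22 to 3.27 in SBR vehicle livers. In WUSTL0717 livers it was at 5.07, 3.33, 4.26, 4.08 and 4.10, so library 1 exceeded all sham livers and 3 of 5 treated libraries lay below them. The group means of treated and sham livers were 4.17 ± 0.62 and 4.40 ± 0.11 (SD, n = 5 each).

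**Figure D1:**
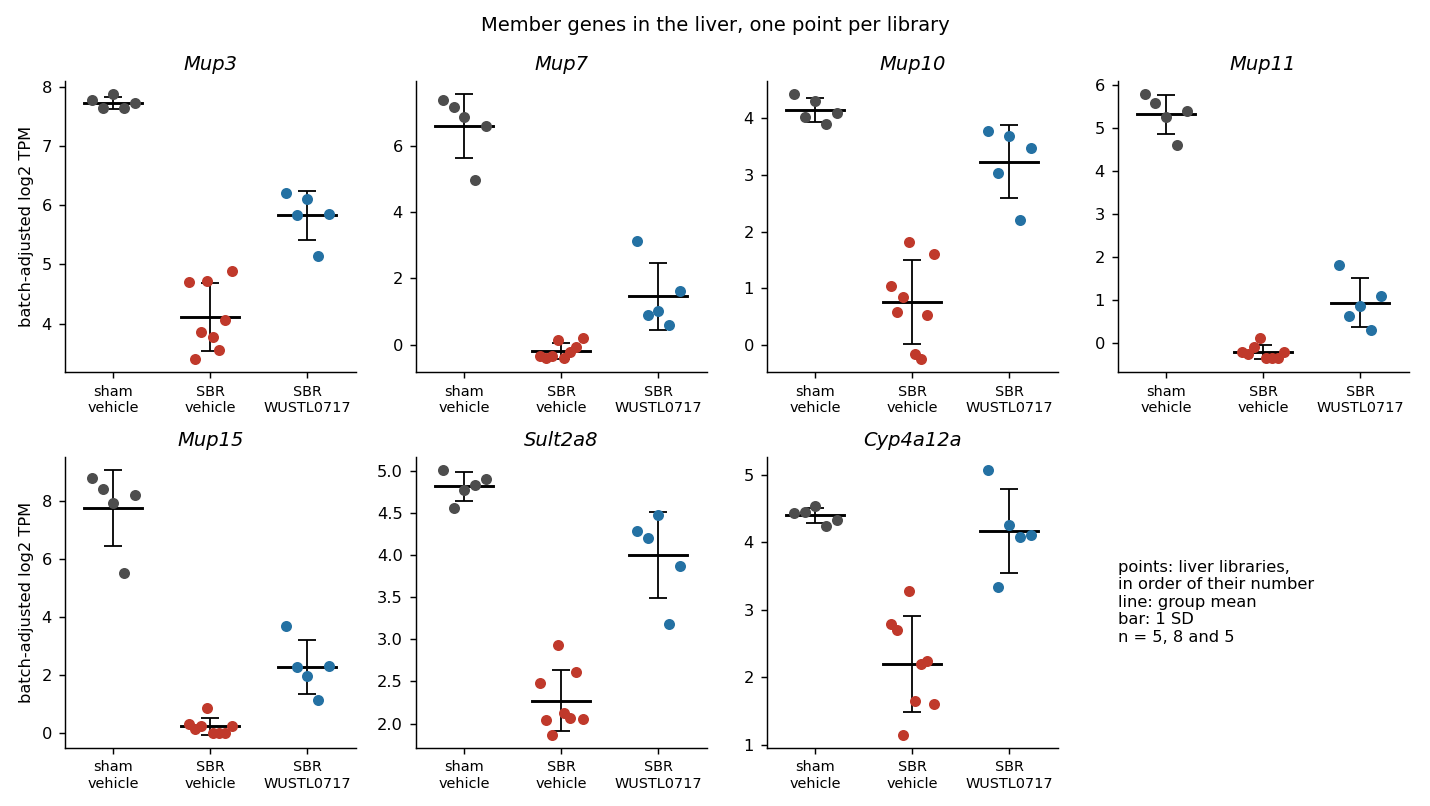
Batch-adjusted log2 TPM (vertical axis, a scale for each gene) of the 7 members in every liver library, with 5 sham vehicle (grey), 8 SBR vehicle (red) and 5 SBR WUSTL0717 (blue) points, a line at the group mean and a bar of 1 SD. In each panel the red points lie below all others; only for Cyp4a12a do blue and grey points overlap.

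For all 7 members, all 8 SBR vehicle livers lay below every sham liver, and all 5 WUSTL0717 livers lay above every SBR vehicle liver. Among the 15896 genes tested in the liver, 1.62% were wholly lower in SBR vehicle than in sham, and 1.23% were wholly higher with WUSTL0717 than with vehicle. Since the members were picked from these contrasts, nothing is read from their count. The difference between SBR vehicle and sham was between -7.56 (Mup15) and -2.20 (Cyp4a12a) log2 units, and with WUSTL0717 they lay between 1.15 (Mup11) and 2.48 (Mup10) above vehicle. These sizes cannot be ranked between genes. The batch step rescaled each gene except Mup15, and a fixed addition shrinks the differences of genes at low levels. Such an addition was tried by taking each adjusted value out of the log, adding 5 and taking log2 again, which adds 5 to TPM only for Mup15, since the rescaled values of the others do not convert back to TPM. SBR vehicle against sham then gave -5.20 for Mup15, -4.13 for Mup7, -3.25 for Mup3, -2.95 for Mup11, -1.74 for Sult2a8, -1.73 for Mup10 and -1.40 for Cyp4a12a. On that scale WUSTL0717 against vehicle gave 1.45 for Mup3, 1.24 for Cyp4a12a, 1.10 for both Mup10 and Sult2a8, 0.72 for Mup15, 0.46 for Mup7 and 0.26 for Mup11.

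To compare the members on a scale that the batch step cannot change, each treated liver was placed between the mean of SBR vehicle (0%) and the mean of sham (100%). Mup11 was at 20.8% ± 10.3, Mup7 at 24.2% ± 14.9 and Mup15 at 27% ± 12.2 (SD, n = 5 each). Mup3 was in the middle, at 47.4% ± 11.5 (SD, n = 5). Sult2a8 was at 68.1% ± 20.1, Mup10 at 73.2% ± 18.9 and Cyp4a12a at 89.7% ± 28.3 (SD, n = 5 each). The ranges of neighbours in this order overlapped throughout. With 5 added to the unlogged values, an alternative chosen after the values were seen, Mup11 was at 8.7%, Mup7 at 11.2% and Mup15 at 13.9%, whereas Mup3 was at 44.6% and the others were between 63.1 and 88.4%. Single livers spread, without that addition, from 9.24 to 48.9% for the 3 lowest genes and from 35.6 to 131% for the 3 highest. The other genes of the family fell on the same scale, with Mup17 at 33.5%, Mup14 at 38.9%, Mup21 at 44.2%, Mup20 at 63.8% ± 55.5 (single livers from -4.23 to 131%) and Mup22, the near copy of Mup10, at 73.8%.

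**Figure D2:**
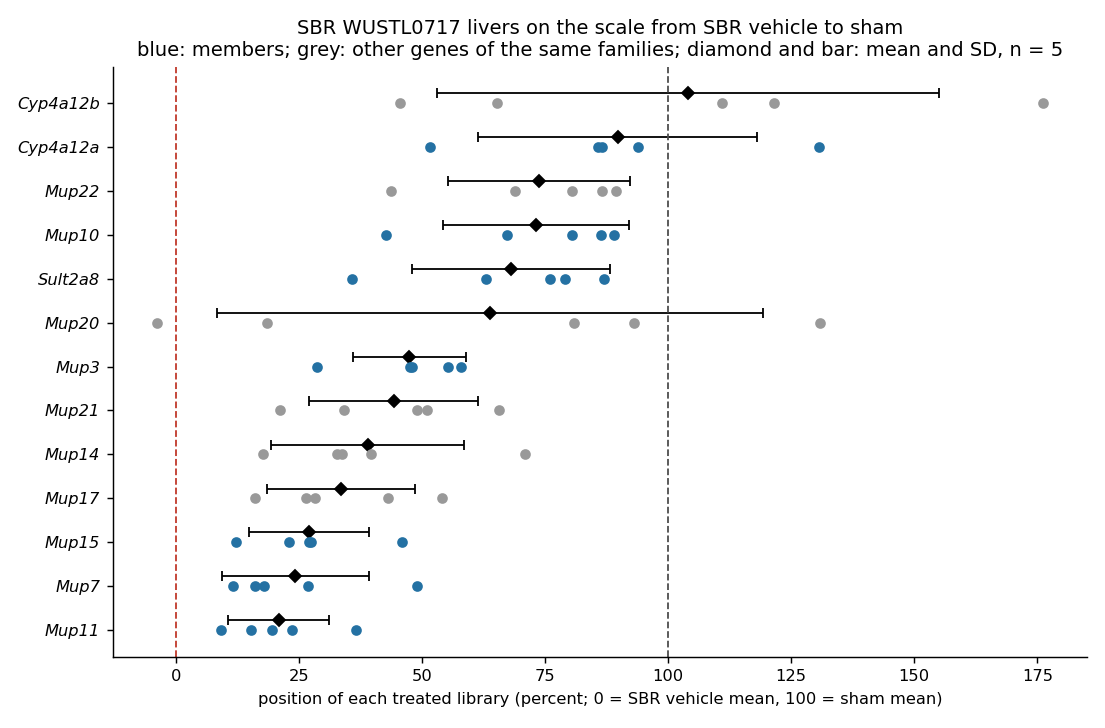
Position of each of the 5 SBR WUSTL0717 livers (points) for the members (blue) and 6 other Mup and Cyp4a12 genes (grey), in percent of the way from the SBR vehicle mean (0) to the sham mean (100), with mean and SD (diamond and bar). Means run from 20.8% for Mup11 to 89.7% for Cyp4a12a among the members, and among the genes drawn, which leave out the pseudogenes, the treated livers of Mup20 and Cyp4a12b are spread most widely.

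The fall after resection was then tested in Mup genes that are not members. Of 17 further numbered Mup genes 5 were in the table, and 5 of 5 fell in SBR vehicle livers (limma, adjusted p between 7.30e-09 and 0.000354), where 4.48% of all genes tested were called lower. With each library centred on its median, which moved the median difference of all genes from 0.25 to -0.06, 5 of 5 were again called and so were 28.8% of all genes. The differences were -5.32 ± 0.41 log2 units for Mup14, -5.01 ± 0.33 for Mup17, -3.83 ± 0.26 for Mup21, -3.52 ± 0.36 for Mup22 and -1.47 ± 0.28 for Mup20, the male pheromone darcin (SE from the fit of 18 livers). Mup22 has 0% of its windows to itself and shares 91.9% with Mup10, so its values are not separate from those of that member, and Mup14 (21% unique) and Mup17 (59.6%) also share windows with other Mup genes. Mup21 has 100% of its windows to itself, and it too was lower in every SBR vehicle liver, at 1.65 ± 0.49 (SD, n = 8) against 5.48 ± 0.29 (SD, n = 5) in sham. In each of the 5, every SBR vehicle liver lay below every sham liver (p = 0.000777 by an exact permutation test of both sides, which is the lowest value that 8 and 5 libraries allow). All 5 come from the same livers as the members and are not independent of them.

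With WUSTL0717, 4 of the 5 rose against vehicle (limma, adjusted p between 0.00146 and 0.0117), where 1.45% of all genes were called higher. With centred libraries 5 of 5 rose, against 11.5% of all genes. Mup22 rose by 2.60 ± 0.36 log2 units, Mup14 by 2.07 ± 0.41, Mup21 by 1.69 ± 0.26 and Mup17 by 1.68 ± 0.33 (SE). Here too, the values of Mup22 are not separate from those of the member Mup10, so its rise is no separate result. Mup20 differed by 0.94 ± 0.28 (adjusted p = 0.0684, limma) and was called with centred libraries, with library weights or without treated library 2 (adjusted p between 0.00798 and 0.0417). The 4 calls held with limma on the compared groups alone, where 74 of all genes were called higher and 117 lower. They were lost in an unmoderated two-sample test of the same groups with the same adjustment. That test called 0 of 15896 genes for the drug, with 2223 at an unadjusted p under 0.05, and gave 0 of these 5. With 5 added to the unlogged values Mup14 (adjusted p = 0.189) and Mup17 (adjusted p = 0.259) were not called by limma.

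The table also lists 4 Mup pseudogenes. Mup-ps13, Mup-ps19 and Mup-ps22 fell after SBR, with differences of -1.80 ± 0.19, -1.71 ± 0.37 and -1.88 ± 0.47 log2 units (SE; limma, adjusted p = 6.50e-07, 0.00118 and 0.00364), and Mup-ps13 rose by 1.01 ± 0.19 with WUSTL0717 (adjusted p = 0.00927). Mup-ps19 and Mup-ps22 differed by 1.11 and 1.28 with the drug and were not called (limma, adjusted p = 0.106 and 0.147), except with library weights (0.0101 and 0.0181) and, for Mup-ps19, with centred libraries. Mup-ps23 was at its lowest value of 1.02 in 13 of 18 livers, and its groups differed by -0.09 and 0.00 (limma, adjusted p = 0.462 and 0.995), though with centred libraries the first was -0.40 and called (0.00877). Mup20 shares 31.1% of its windows with Mup-ps19.

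**Figure D3:**
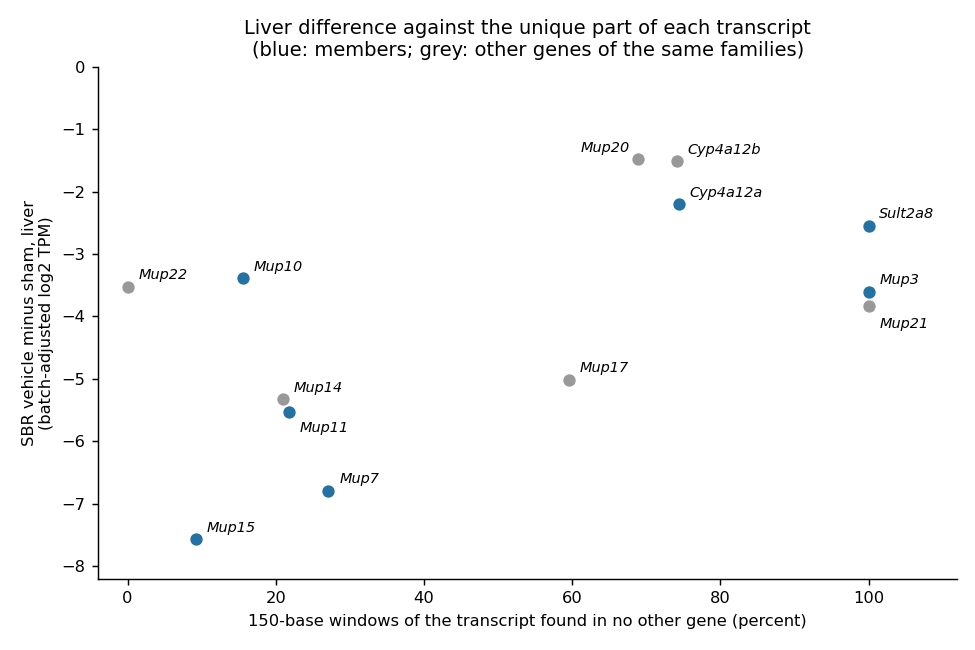
Difference between SBR vehicle and sham livers in batch-adjusted log2 TPM (vertical axis) against the percent of 150-base transcript windows found in no other gene (horizontal axis), for members (blue) and for other numbered Mup genes and Cyp4a12b (grey). The other Cyp4a genes and the pseudogenes are not drawn; every gene drawn is below 0, including Mup3, Mup21 and Sult2a8 at 100% unique windows.

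Within groups, the Mup genes varied together to different degrees. After each library was set against its group mean, Pearson correlations over the 18 livers were 0.92 to 0.97 among the 10 pairs of Mup7, Mup11, Mup14, Mup15 and Mup17, and 0.82 to 1.00 among the 6 pairs of Mup3, Mup10, Mup21 and Mup22. Between the sets, 20 pairs had values of 0.39 to 0.77. By rank the sets were less distinct, with Spearman rho of 0.83 to 0.96 and 0.87 to 0.99 within them and 0.48 to 0.84 between them. These are descriptions over libraries that share their processing, and the 2 sets were drawn after the values were seen. They differed in sham library 4, where Mup15 was at 5.51 and the next sham liver at 7.95, while Mup3 was at 7.63, level with another sham liver. Mup20 had correlations of 0.36 to 0.65 with the 9 genes of both sets. The pair Mup10 and Mup22, with the largest shared part, reached 1.00 (Spearman rho 0.99), and their values cannot be told apart as signals of 2 genes. Mup3 and Mup10 reached 0.86 (Spearman rho 0.89) although none of the Mup3 windows occurs in Mup10.

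Sult2a8 and Cyp4a12a share no windows with the Mup genes. Over the 11 pairs that involve either of them, Pearson correlations were 0.26 to 0.64 with a median of 0.39 (Spearman rho 0.15 to 0.64), and Sult2a8 reached 0.64 with Mup3 and 0.60 with Mup10. The 10 pairs of Mup members, of which those without Mup3 are near-identical copies, ran from 0.39 to 0.93 with a median of 0.54 (Spearman rho 0.68), so the ranges overlapped, and the difference of the medians was not tested. In the mean profile of the 7 members, treated library 1 and SBR vehicle library 4 were highest within their groups, and treated library 4 and sham library 4 were lowest.

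**Figure D4:**
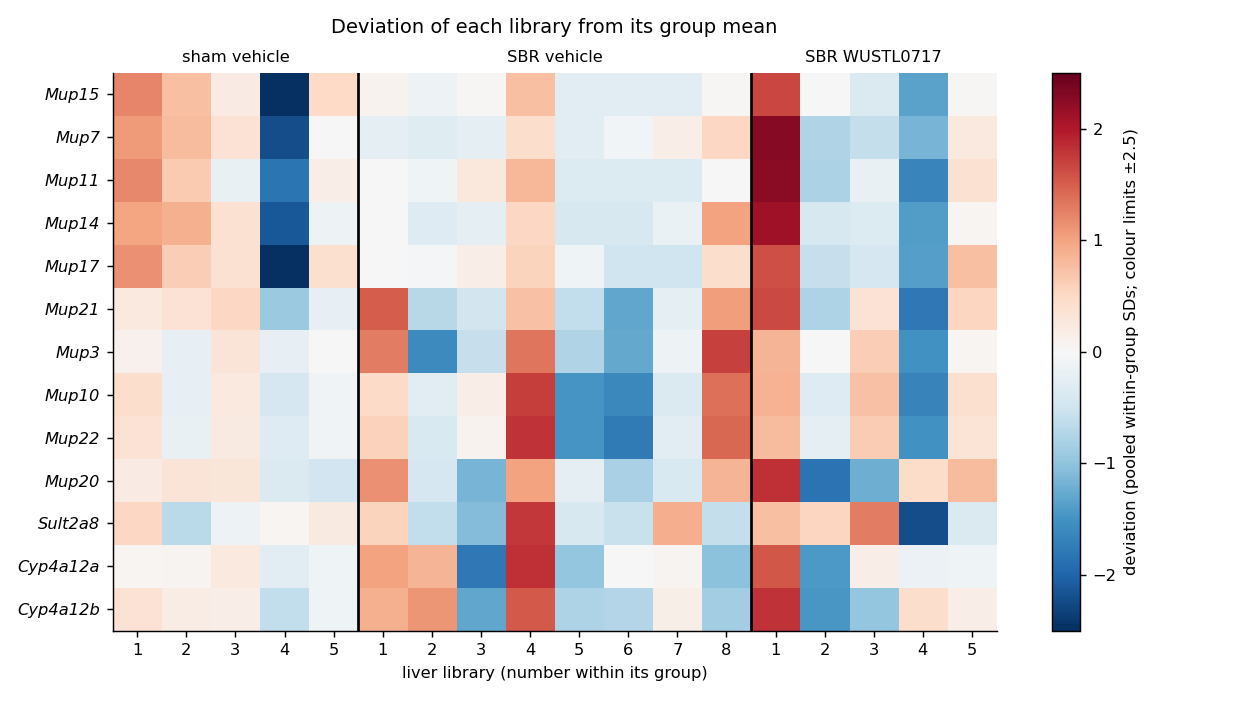
Deviation of each of the 18 liver libraries (columns, by group and number) from its group mean for 13 genes (rows), in pooled within-group SDs, with red above and blue below the mean. Sham library 4 is blue in the upper 5 rows (Mup15, Mup7, Mup11, Mup14, Mup17) and pale for Mup3, Mup10 and Mup22, whereas treated library 1 is red in every row.

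Genes most like the members were sought by the correlation of their group-centred values with the mean profile of the 7 members, leaving out Mup genes and unnamed transcripts. Over the 15898 genes compared, the median correlation was -0.04, and 95% lay between -0.43 and 0.53. The 10 most alike had correlations of 0.75 to 0.83. They were Cyp7b1 (0.80), an oxysterol hydroxylase, Cyp2u1 (0.80), Rarres1 (0.80), the transporter gene Slc22a28 (0.79), the serine protease inhibitor genes Serpina3k (0.75) and, annotated as a transcribed pseudogene, Serpina3h (0.77), Cyp2d12 (0.76) and 3 processed pseudogenes, Uqcrh-ps2 (0.83), Hspe1-ps6 (0.80) and Rps15-ps2 (0.76). Likeness within groups did not use the group means, and the group means of these genes could be tested. Cyp7b1, Cyp2u1 and Rarres1 also belong to lists described below. Of the others, 4 fell after SBR, where 4.48% of all genes were called lower, with differences of -1.67 ± 0.14 log2 units in Slc22a28, -1.36 ± 0.17 in Cyp2d12, -1.90 ± 0.19 in Serpina3k and -0.76 ± 0.15 in Serpina3h (SE; limma, adjusted p between 5.10e-08 and 0.000572). With WUSTL0717, where 1.45% of all genes were called higher, Slc22a28 rose by 0.68 ± 0.14 and Serpina3k by 0.96 ± 0.19 (adjusted p = 0.0136 and 0.0116, limma), and Cyp2d12 and Serpina3h were not called (adjusted p = 0.0604 and 0.572). The call of Serpina3k was lost without treated library 3 (0.0546), and Cyp2d12 was called with centred libraries or library weights and without SBR vehicle library 4 or treated library 4 (adjusted p between 0.00391 and 0.0414). None of the 3 processed pseudogenes was called in either comparison.

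The paralogs of Cyp4a12a did not share one pattern. Of 14 listed Sult2a and Cyp4a paralogs 5 were in the table, all of them Cyp4a genes. Cyp4a12b, which lies beside Cyp4a12a and is 98.3% identical to it over 2394 aligned bases, fell by 1.51 ± 0.31 log2 units after SBR and rose by 1.57 ± 0.31 with WUSTL0717 (limma, adjusted p = 0.000760 and 0.0119). Its treated livers averaged 3.64 ± 0.77 (SD, n = 5) against 3.59 ± 0.23 (SD, n = 5) in sham. Cyp4a31 rose after SBR by 1.5 ± 0.29 (adjusted p = 0.000382, limma) and differed by -0.21 with the drug (adjusted p = 0.803). The remaining Cyp4a10 and Cyp4a14, known targets of the fatty acid receptor PPAR-alpha, and Cyp4a32 were not called in either comparison. The correlations of Cyp4a10, Cyp4a14, Cyp4a31 and Cyp4a32 with the member profile were between -0.40 and -0.39.

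Genes with higher expression in male than in female mouse liver were examined next, as the program to which the Mup genes belong. Of 30 listed genes 23 were tested. After SBR 21 of the 23 fell, 0 rose and 2 were not called, with a median difference of -1.30, where 4.48% of all genes were called lower. With centred libraries 23 of 23 fell, against 28.8% of all genes. The differences were -4.87 ± 0.31 log2 units for Serpina1e, -3.71 ± 0.33 for the fatty acid elongase gene Elovl3, -3.71 ± 0.27 for the organic anion transporter gene Slco1a1, -2.53 ± 0.17 for Cyp2u1 and -2.39 ± 0.16 for Cyp7b1 (SE; limma, adjusted p between 5.43e-09 and 1.08e-07). Serpina1e has near copies of its own, and its value is uncertain for the same reason as those of the Mup genes. The 2 that were not called, Gstp1 and Gstp2, named here after their values were seen, differed by -0.39 and -0.36.

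With WUSTL0717, 9 of the 23 male-biased genes rose, 0 fell and 14 were not called, with a median difference of 0.69, where 1.45% of all genes were called higher. With centred libraries 15 rose, against 11.5% of all genes. All 9 had fallen after SBR. Elovl3 rose by 2.14 ± 0.33 log2 units, Cyp2u1 by 1.02 ± 0.17, Cyp7b1 by 0.96 ± 0.16, Cyp2f2 by 0.96 ± 0.16 and Nat8f5 by 0.89 ± 0.15 (limma, adjusted p between 0.00369 and 0.00638). Serpina1e and Slco1a1 differed by 0.60 ± 0.31 and 0.88 ± 0.27 and were not called (adjusted p = 0.335 and 0.0819, limma), but Slco1a1 was called with centred libraries, library weights or a replicate block and without SBR vehicle library 6 (adjusted p between 0.0133 and 0.0364). None of the 9 calls was made by the unmoderated test, which found 15 of the 23 at an unadjusted p under 0.05.

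Genes with higher expression in female liver did not move as one group. Of 31 tested out of 43 listed, 18 rose after SBR, 3 fell and 10 were not called, where 37.5% of all genes were called higher. The share of all genes called lower was 4.48%. With centred libraries 13 rose and 5 fell, against 20.4% and 28.8% of all genes. Gas6, a ligand of receptor tyrosine kinases, rose by 1.54 ± 0.15 log2 units, Cyp2a4 by 2.15 ± 0.26 and the aldo-keto reductase gene Akr1b7 by 1.37 ± 0.17 (limma, adjusted p between 2.19e-07 and 3.72e-06). Rarres1 fell by 0.66 ± 0.21 (adjusted p = 0.0142, limma), a call that was lost without sham library 1 or 5 (0.0552 and 0.0522) and with a replicate block (0.0672). With WUSTL0717, where 1.45% of all genes were called higher and 2.67% lower, Cyp2b10 rose by 1.33 ± 0.34 and Rarres1 by 0.91 ± 0.21, Akr1b7 fell by 0.66 ± 0.17 (limma, adjusted p = 0.0314, 0.0193 and 0.0330) and 28 were not called. These 3 calls are weak, and leaving out treated library 1 or treated library 3 gave 0 calls in this list. Cyp2b10 had also been called higher after SBR, by 0.96, a call lost in 7 of 26 alternatives. With the drug it thus moved further from sham, whereas Rarres1 and Akr1b7 moved back towards it.

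Of the regulators of the male program, Ghr, the growth hormone receptor gene, was at 5.31 ± 0.16 (SD, n = 5) log2 units in sham livers, 4.36 ± 0.28 (SD, n = 8) in SBR vehicle livers and 4.90 ± 0.19 (SD, n = 5) in WUSTL0717 livers. It fell by 0.95 ± 0.13 after SBR and rose by 0.55 ± 0.13 with the drug (limma, adjusted p = 9.10e-06 and 0.0226). Socs2, which growth hormone induces and which damps its signal, went the other way. It was at 2.25 ± 0.08 in sham, 3.52 ± 0.36 in SBR vehicle and 2.7 ± 0.35 in WUSTL0717 livers, with a difference of 1.26 ± 0.17 after SBR and of -0.81 ± 0.17 with the drug (SE; limma, adjusted p = 7.09e-06 and 0.0132). The call of Ghr with the drug was lost without treated library 1, 2 or 3, with the compared groups alone and with a replicate block (adjusted p between 0.0604 and 0.0939, limma) and in the unmoderated test (0.123), and that of Socs2 without treated library 2 (0.0517) and in the unmoderated test (0.117).

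The transcription factor gene Stat5b differed by 0.08 ± 0.10 log2 units after SBR and by 0.21 ± 0.10 with the drug, and neither was called (limma, adjusted p = 0.527 and 0.283), but the alternatives called the first in both directions, at -0.22 with centred libraries (adjusted p = 0.00630) and 0.19 with library weights (0.015), and the second at 0.22 with centred libraries (0.0183). Bcl6, a repressor that is higher in male liver, fell by 0.86 ± 0.32 after SBR (adjusted p = 0.0384, limma), a call that was lost without sham library 3, 4 or 5 and without SBR vehicle library 4, 6, 7 or 8. The Bcl6 call was also lost with a replicate block (limma, adjusted p = 0.249), library weights (0.0534) or the compared groups alone (0.0507), and in the unmoderated test (0.1). Igf1 differed by -0.33 and 0.23 and was not called, but with centred libraries it fell by 0.64 after SBR (adjusted p = 0.000236, limma), and it was also called with library weights (0.0301) and without SBR vehicle library 4 (0.0224). Igfals, which encodes a carrier of the same hormone, fell by 0.93 ± 0.17 after SBR (adjusted p = 0.000236, limma). Of all 26 regulators, 6 rose and 6 fell after SBR, against 3 and 16 with centred libraries, and with the drug 1 rose and 1 fell, against 7 and 1. Of all genes, 37.5% were called higher and 4.48% lower after SBR (20.4% and 28.8% with centred libraries), and with the drug 1.45% and 2.67% (11.5% and 8.2%).

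**Figure D5:**
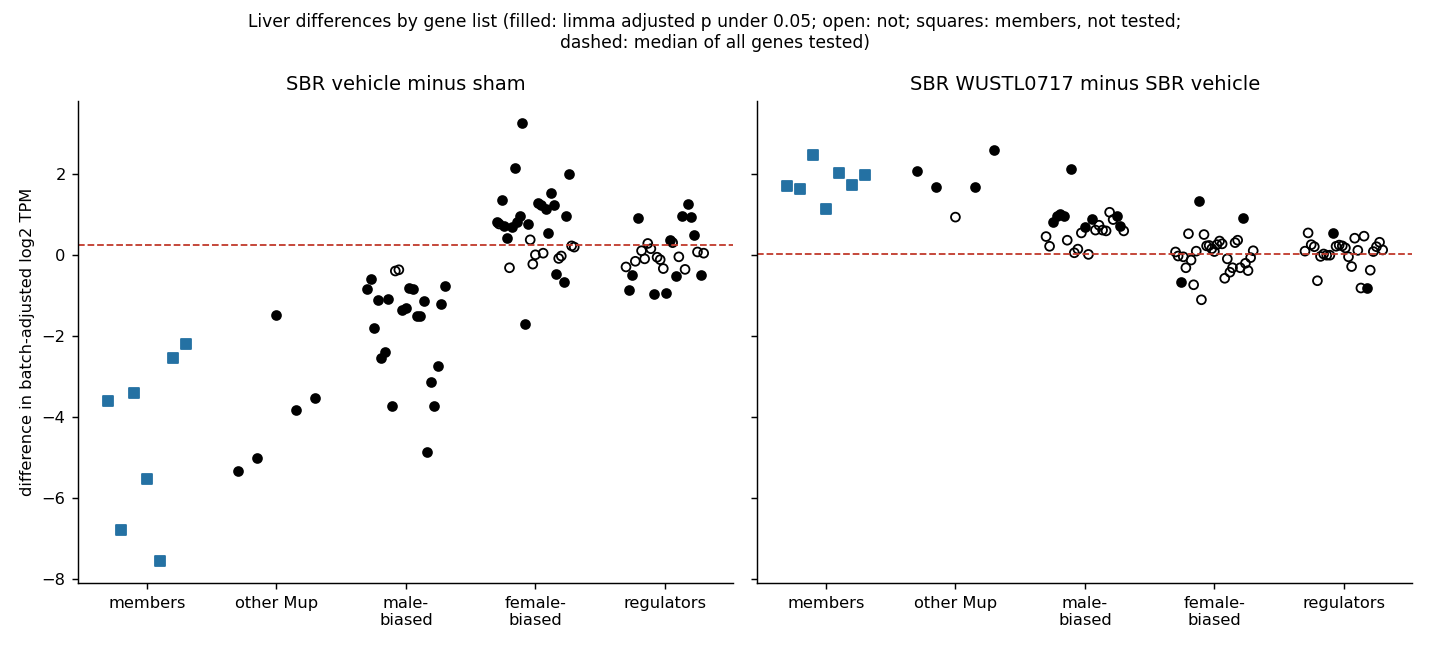
Differences in batch-adjusted log2 TPM of single genes (points) in 5 gene lists, for SBR vehicle minus sham (left) and SBR WUSTL0717 minus SBR vehicle (right). Filled points passed an adjusted p of 0.05 in limma, open points did not, squares are the members, which were not tested, and the dashed line is the median of all genes tested (0.25 on the left, 0.02 on the right).

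Markers of cholangiocytes and of stellate cells and fibroblasts moved with the same groups. The shares of all genes to read these counts against are 37.5% higher and 4.48% lower after SBR, and 1.45% higher and 2.67% lower with the drug. For counts with centred libraries they are 20.4% and 28.8% after SBR and 11.5% and 8.2% with the drug. In bulk tissue, fewer hepatocytes and less RNA per hepatocyte cannot be told apart. Of 8 cholangiocyte markers 8 rose after SBR and 5 fell with WUSTL0717, and their mean level per library was 3.24 to 3.97 in sham, 5.12 to 5.94 in SBR vehicle and 4.44 to 5.47 in treated livers. Of 10 stellate cell and fibroblast markers 9 rose and 5 fell, with mean levels of 3.58 to 4.06, 4.91 to 5.74 and 4.48 to 5.32. Of 10 hepatocyte markers 4 fell after SBR and 0 with the drug were called, though 5 had an unadjusted p under 0.05 (limma; 0 called by the unmoderated test). With centred libraries 9 of them fell after SBR and 5 rose with the drug. Their mean levels were 8.44 to 8.86, 7.43 to 8.44 and 8.42 to 8.74. The hepatocyte markers differed by -1.64 to -0.01 after SBR, with a median of -0.41. Macrophage markers had 1 of 8 higher and 1 lower after SBR and 2 higher with the drug (1 higher, 4 lower and 4 higher with centred libraries), lymphocyte markers 2 of 6 higher after SBR (0 with centred libraries), and endothelial markers 1 of 7 higher (4 also lower with centred libraries). No marker of any list was at 0 in all livers, but this does not show that each was expressed. The batch step can place a gene without reads at a value other than 0. The part of these cells in the results for the members was not tested.

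Outside the liver the members could be tested, since the choice did not use the intestine. Most were at or near their lowest listed value there. In the duodenum Mup3, Mup7 and Mup15 were at it in 11 of 11 libraries, Mup10 and Mup11 were above it in 2, Sult2a8 in 1 and Cyp4a12a in 4. In the ileum Mup15 was again at it in all 11, and Mup10, Sult2a8 and Cyp4a12a were above it in 1 each. Mup11 was above it in 10 of 11 ileal libraries, Mup3 in 7 and Mup7 in 5.

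No member was called in either intestinal region. In the duodenum 3 members had variation and a sufficient mean for the fit, and limma called 0 of 2 after SBR, leaving out Sult2a8, which was at its lowest value in every library of both groups, and 0 of 3 with WUSTL0717 (lowest adjusted p 0.732 and 1.00), with 0 at an unadjusted p under 0.05. Over all genes, 0.0% were called in the first comparison and 0.272% in the second. In the ileum limma called 0 of 5 after SBR, leaving out Mup10, and 0 of 5 with the drug, leaving out Sult2a8, for the same reason (lowest adjusted p 0.934 and 0.715), where 0.349% and 0.0698% of all genes were called. Of these, 1 member, Mup11, had an unadjusted p under 0.05, at 1.94 ± 0.50 with the drug and 1.19 ± 0.52 with vehicle (SD, n = 4 each; exact two-sided permutation test, p = 0.114, where 0.0286 is the smallest possible). The unmoderated test called 0 members in every intestinal comparison. With 3 or 4 libraries a group and values near the lower limit, small changes were not detectable.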

How the data were processed

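The deposited values are log2 TPM for 15958 genes in 40 libraries. Per the study's methods and the submitters' processing notes, ribosomal RNA was depleted, reads were aligned to GRCm38 with STAR and, where unique, counted with featureCounts, and the authors scaled them with edgeR, took log2 TPM and removed a batch term with ComBat (intestine 1 batch, liver the other). Median values of the liver libraries lie between 3.05 and 3.77. No read totals came with the table, so sequencing depth, and the counting error that goes with it, is unknown. The labels number libraries within groups, and p-values measure the spread between them.

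Genes with a mean of at least 1 in a tissue that varied there were fitted on its 3 groups with limma 3.58.1 (R 4.3.3), its variance trend on, p-values adjusted over all genes by Benjamini-Hochberg, and called at an adjusted p under 0.05. In the liver 15899 genes were fitted without the filter and 15896 with it, so the shares of all genes may include genes not expressed there. The fit was checked on simulated data. Single genes were also compared by exact two-sided permutation tests. Members in the liver were not tested. Named genes are the members, all other Mup genes, called paralogs, of each further list the 4 genes with the smallest p in each liver comparison, 5 fixed regulators, and the 10 genes most like the members. Members and lists were chosen with earlier results of these data known. Sequences came from RefSeq and GENCODE M21 (both GRCm38), compared in Python 3.11.15 with biopython, numpy 2.4.6, pandas 2.3.3 and scipy 1.17.1. Alternatives were no filter, a filter at 3, 5 added to the unlogged values, centred libraries, an unmoderated test, no variance trend, library weights, the compared groups alone, a replicate block, rank correlation and leaving out each library.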

Additional observations from a re-analysis of the deposited data

Results flagged for a closer look

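Single libraries that lay apart from the rest of their group were looked for in 157 groups of 4 to 10 libraries (members in every tissue, other named genes in the liver) with Dixon's test, and 14 were found. In 7 of them all other libraries of the group were tied, so that any single different value meets the test, and the rate of about 1 in 20 that chance gives applies only to the other 7. Those 7 are about as many as this rate gives over so many groups, so the values below are listed only as a description. In the liver, sham library 4 had the low values 5.51 for Mup15 (next 7.95) and 3.28 for Mup17 (next 5.14). SBR vehicle library 4 had the high value 0.85 for Mup15 (next 0.30). Treated library 1 had the high values 1.28 for Mup-ps23 (the other 4 at 1.02) and 3.15 for Slco1a1 (next 1.89). Sham library 2 was low for Cyp2f2 at 5.76 (next 5.88) and for Ghr at 5.03 (next 5.34), and SBR vehicle library 2 was low for Nat8f5 at 3.19 (next 3.78).

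In the intestine each such value was the only one of 4 libraries above the lowest listed value. These were Mup7 at 1.93 in SBR vehicle library 4 of the ileum, Mup10 at 1.81 in treated library 2 of the ileum and Mup11 at 1.32 in SBR vehicle library 3 of the duodenum. Sult2a8 was at 2.76 in treated library 2 and Cyp4a12a at 2.47 in treated library 3 of the duodenum, and Cyp4a12a was at 2.58 in SBR vehicle library 1 of the ileum.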

How the results depend on the processing

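Liver differences of the 7 members kept their sign under the alternatives that gave a value (26 for Mup7, Mup10, Mup11 and Mup15, which a filter at 3 removes, and 27 for the others), though a sign for which members were chosen is no sign of stability. Leaving out single libraries gave -3.71 to -3.50 for Mup3 and -8.13 to -7.31 for Mup15 after SBR. With 5 added to the unlogged values, 12 of these differences moved by more than the spread between libraries, and so did the positions of Mup11 (20.8 to 8.7%) and Mup15 (27 to 13.9%), which were recomputed after seeing the data. Counts of all genes called depended on the fit: after SBR 6666 were called, 4180 with a filter at 3, 10458 with library weights and 5375 to 9005 without single libraries, and centring gave 3248 higher and 4573 lower against 5954 and 712. With WUSTL0717, 655 were called, 334 with a filter at 3, 3127 with centring, 0 with the unmoderated test, 2812 with weights, 191 with the compared groups alone and 99 to 1067 without single libraries (410 without SBR vehicle library 1, and 174, 119, 99 and 1067 without treated libraries 1, 2, 3 and 4). The cause was not tested.

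Other Mup genes called were 5 after SBR (2 with a filter at 3, which leaves fewer genes) and 4 with the drug (1 with that filter, 2 with 5 added, 0 with the unmoderated test, 5 with centring). Paralogs called were 2 after SBR (0 with the filter at 3, 4 with library weights, 2 to 4 without single libraries, the 4 being without sham library 4) and 1 with the drug (0 with the filter, 0 unmoderated, 1 without any single library). Male-biased genes called with the drug were 9, against 15 with centring, 0 unmoderated and 7 to 12 without single libraries. Female-biased genes called after SBR were 21, or 12 with the filter at 3, and with the drug 3, or 11 with centring, 0 unmoderated, 9 with weights, 1 with the compared groups alone, 0 with a replicate block and 0 to 4 without single libraries (1 without treated library 2 or SBR vehicle library 7). Regulators called after SBR were 12, or 19 with centring, and with the drug 2, or 1 with the filter at 3, 8 with centring, 0 unmoderated, 4 with weights, 1 with the compared groups alone, 1 with a replicate block and 0 to 3 without single libraries (1 without treated library 1 or 3, 0 without 2).

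Differences that changed sign were small and not called in the fit given first. In the ileum, Mup3 with the drug was -0.34 (-0.67 to 0.00 without single libraries), Mup11 after SBR was -0.13 (0.00 with a replicate block, -0.34 to 0.08 without single libraries) and Cyp4a12a after SBR was 0.07 (-0.01 with centring). In the duodenum Cyp4a12a after SBR was -0.02 (0.38 with centring, 0.02 with a replicate block, -0.13 to 0.20 without single libraries). In the liver Igfals with the drug was 0.18 (-0.06 with weights) and Stat5b after SBR was 0.08 (-0.22 with centring, 0.19 with weights). Replicate numbers were not taken as pairs, because libraries with the same number in 2 liver groups had correlated deviations of only -0.12 to 0.16, and the block gave 487 genes with the drug in place of 655 and 5585 after SBR. Median correlations of member pairs stayed between 0.42 and 0.62 (Mup pairs) and between 0.29 and 0.47 (the others) without single libraries. No member was called in the intestine under any alternative. After SBR, Mup11 and Mup15 were at their lowest value in 3 of 8 livers each, so smaller levels could not be told apart there.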
